A study of Mus musculus with 8 samples.

Results

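Iron uptake and storage genes were examined in mouse primitive erythroid precursors, nucleated cells of the first red cell wave, which arises in the yolk sac, at embryonic day 9.5. The members were 10 named genes, Tfrc, Slc11a2, Steap3, Slc25a37, Slc40a1, Fth1, Ireb2, Aco1, Pcbp1 and Hmox1, with every probe set annotated to them. They are 10 of the 12393 genes on the array and 19 of its 22626 probe sets, where a probe set is a group of oligonucleotides on the array that reads 1 transcript or a few. No member lacked a probe set, and 0 of the 19 were shared with another named gene. RNA was measured on 4 arrays labelled KLF2-/- (replicates 11, 12, 13 and 14) and on 4 arrays labelled wild type FVB/N (replicates 3, 5, 7 and 9), all from embryonic day 9.5. They are called knockout and wild-type arrays here, after their labels. KLF2 belongs to the same zinc finger family as KLF1, which controls many red cell genes, and the comparison asks which genes differ in these cells without it. Erythroid cells were cut by laser from stained frozen sections 8 micrometres thick, and each array pooled material from between 2 and 4 yolk sacs of 2 litters. The amounts given differ by group. They are 30 to 80 slides and 10 to 20 ng of RNA for knockout, and 12 to 50 slides and 10 to 39 ng for wild type. These amounts cannot be told apart from genotype. The sources used here give neither the strain of the KLF2 line nor how its allele was made, so strain cannot be told apart from genotype. The labels call the dams of the knockout embryos KLF2-/-, and the design text calls them KLF2+/-.

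Red cell precursors need more iron than other cells, because each haem group of haemoglobin holds an iron atom. Iron arrives on transferrin, which binds the transferrin receptor and is taken into endosomes, where iron is reduced and pumped into the cytosol. From there it is carried into mitochondria for haem synthesis, stored in ferritin or exported. When iron is scarce, iron regulatory proteins bind RNA hairpins called iron-responsive elements, which block translation of ferritin and ferroportin mRNA and stabilise transferrin receptor mRNA.

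The arrays did not separate by label, with a mean Pearson's r over all probe sets of 0.969 within groups and 0.968 between groups. The first principal component set knockout arrays 12 and 11 opposite wild-type arrays 3 and 5. Knockout array 14 lay farthest out along the next component, and knockout array 13 along the one after it. Klf2 itself, by its 1 probe set, averaged 6.05 ± 0.77 in knockout and 5.28 ± 0.31 in wild-type arrays (log2 value, SD, n = 4 each). The exact two-sided permutation p was 0.0571, where the smallest that this test can give is 0.0286. Its values were 5.38, 5.77, 7.15 and 5.89 in knockout arrays 11 to 14, against 5.18, 5.28, 4.97 and 5.70 in wild-type arrays 3, 5, 7 and 9. The sources used here do not say whether this probe set reads the part that was deleted, so it is no check of the labels. Erythroid markers were present on every array, with Hbb-bh1 at 14.08 ± 0.05 in knockout and 14.11 ± 0.06 in wild-type arrays. The mean log2 level over 12 of 14 listed erythroid markers ran from 8.86 to 10.43 in knockout and from 9.24 to 10.25 in wild-type arrays. The lowest level was that of knockout array 13. Visceral endoderm markers (12 of 12 measured) were also present, at 7.33 to 10.58 in knockout and 9.58 to 10.15 in wild-type arrays, and knockout array 14 was the lowest. For 12 of 12 macrophage markers the mean levels were 5.01 to 5.33 in knockout and 4.73 to 5.02 in wild-type arrays. For 12 of 12 endothelial markers they were 5.70 to 6.40 in knockout and 5.51 to 6.06 in wild-type arrays. For 8 of 8 mesenchyme markers they were 8.16 to 9.87 in knockout and 8.73 to 9.34 in wild-type arrays. In the macrophage and in the endothelial list 10 of 12 markers averaged higher in knockout arrays, against 53.4% of all genes. The same held for 5 of 12 erythroid, 2 of 12 visceral endoderm and 4 of 8 mesenchyme markers. A log2 table has no true zero, so no marker can be called absent from it.

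No iron gene was called different between the groups. Of the 19 probe sets, 0 passed an adjusted p of 0.05 by limma, where 0.00% of all probe sets passed, and the lowest adjusted p among the 19 was 0.86. At an unadjusted p under 0.05 there was 1, a probe set of Steap3, against 5.40% of all probe sets. Groups that did not overlap were found at 0 of the 19, against 2.99% of all. The mean was higher in knockout arrays at 9 of the 19 probe sets, against 52.2% of all, and lower at 10 of the 19, against 47.8% of all. The median difference was -0.04 on the log2 scale over the 19 and 0.01 over all probe sets. The median size of a difference without regard to sign was 0.26 over the 19 and 0.14 over all probe sets. That comparison was not matched for signal or for spread between arrays, and 15 of the 19 had a mean above the median of all probe sets. The 95% confidence interval of the difference reached beyond a 2-fold change, which is 1 on the log2 scale, at 9 of the 19.

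**Figure D1:**
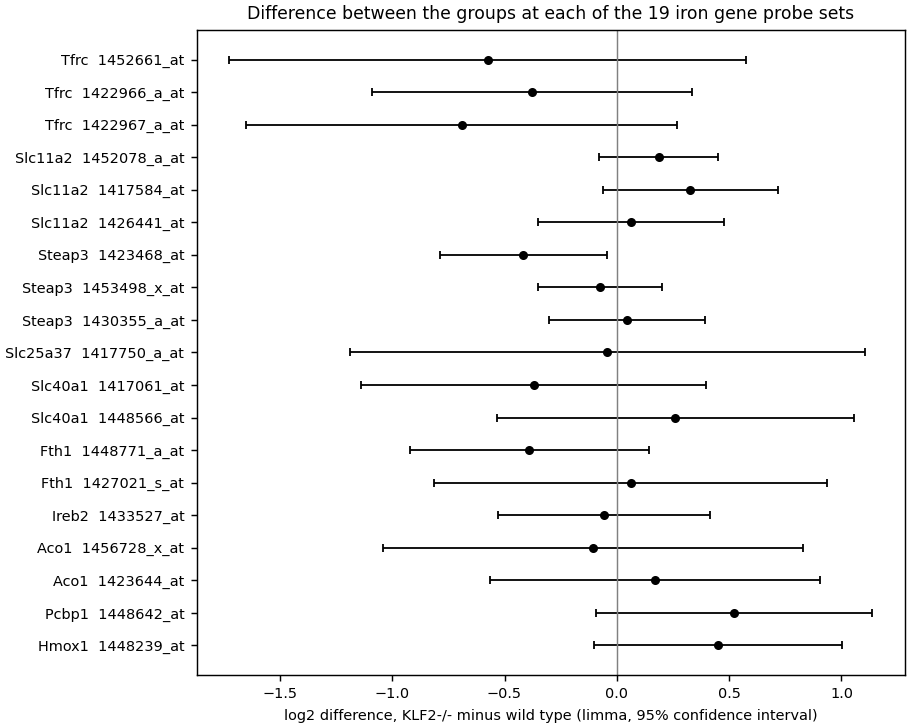
Log2 difference, KLF2-/- minus wild type (x axis), at each of the 19 probe sets of the iron genes, in the order in which the members were first named. Points are limma estimates from 4 arrays a group and bars their 95% confidence intervals. Of the 19 intervals, 18 include 0 and that of 1 Steap3 probe set does not.

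Tfrc, the transferrin receptor that brings transferrin-bound iron into the cell, had 3 probe sets, and each averaged lower in knockout arrays without passing the test. The brightest had log2 values of 11.59, 10.63, 9.16 and 11.51 in knockout arrays 11 to 14, against 10.68, 11.69, 11.52 and 11.29 in wild-type arrays 3, 5, 7 and 9. Knockout array 13 stood far below all others, while knockout arrays 11 and 14 lay within the upper wild-type range. The mean was 10.72 ± 1.13 in knockout and 11.30 ± 0.44 in wild-type arrays (SD, n = 4 each), a difference of -0.58 (95% confidence interval -1.73 to 0.58, limma adjusted p = 0.894). Without knockout array 13 this difference was -0.05, and without knockout array 11 it was -0.865. In such captures fewer erythroid cells and less RNA per erythroid cell cannot be told apart. The erythroid markers on knockout array 13, as a mean of 12, deviated from their mean over the 8 arrays by -0.91. Most of them were low there, but Hbb-y was at 13.64, with means of 13.50 in knockout and 13.60 in wild-type arrays. On wild-type array 5 the brightest Tfrc probe set was highest, at 0.68 above its mean, while the erythroid markers were at -0.41. The part of the erythroid markers in the Tfrc values was not tested.

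The other probe sets of Tfrc differed by -0.38 and -0.69. The one at an intermediate signal repeated the low value of knockout array 13, with 7.33, 6.92, 6.23 and 7.79 in knockout arrays and 7.09, 7.82, 7.35 and 7.52 in wild-type arrays. Knockout array 13 was again the lowest of the 8 and wild-type array 5 the highest. The difference of -0.38 at this probe set was -0.10 without knockout array 13 and -0.62 without knockout array 14. The dimmest probe set, whose mean of 4.20 is below the median of all probe sets at 5.14, followed another order. Its values were 3.84, 3.37, 3.67 and 4.54 in knockout arrays and 5.04, 5.52, 3.84 and 3.77 in wild-type arrays. Wild-type arrays 3 and 5 were the highest at it, and without both the difference was 0.05. Without wild-type array 5 alone it was -0.37.

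The promoter window of Tfrc is shown beside that of Pcbp1, because among the probe sets of highest mean these members had the most negative and the most positive difference. Each window holds the 250 bases before the outermost annotated start of the gene, 5′ to 3′ on the gene's strand, from RefSeq on GRCm38.p6. Tfrc lies on the plus strand at chr16:32608646-32608895 and Pcbp1 on the minus strand at chr6:86526190-86526439. Capitals mark matches to CCNCNCCC, a motif bound by KLF factors, searched on both strands.
Tfrc: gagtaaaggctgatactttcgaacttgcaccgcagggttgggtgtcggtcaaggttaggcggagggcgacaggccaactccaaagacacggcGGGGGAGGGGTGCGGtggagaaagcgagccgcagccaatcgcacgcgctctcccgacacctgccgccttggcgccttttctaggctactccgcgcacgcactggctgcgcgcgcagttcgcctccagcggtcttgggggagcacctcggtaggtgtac
Pcbp1: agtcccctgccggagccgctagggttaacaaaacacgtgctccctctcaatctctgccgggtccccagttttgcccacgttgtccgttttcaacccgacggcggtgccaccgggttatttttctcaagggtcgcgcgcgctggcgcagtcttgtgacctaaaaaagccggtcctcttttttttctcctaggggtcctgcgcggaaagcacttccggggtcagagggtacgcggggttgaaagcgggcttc

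The Tfrc window held 3 overlapping matches, all on the opposite strand, and the Pcbp1 window held 0. RefSeq windows were matched for 6 of the 10 members, 11 windows in all since some genes have several starts. A match to CCNCNCCC was found in 8 of the 11, and 45.9% of all 32851 promoter windows of this length hold one. The letters AGATAA, a form of the site bound by GATA factors such as GATA1, the erythroid regulator, were in 1 of the 11 windows, against 9.99% of all. These are matches of letters, and no binding was measured.

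**Figure D2:**
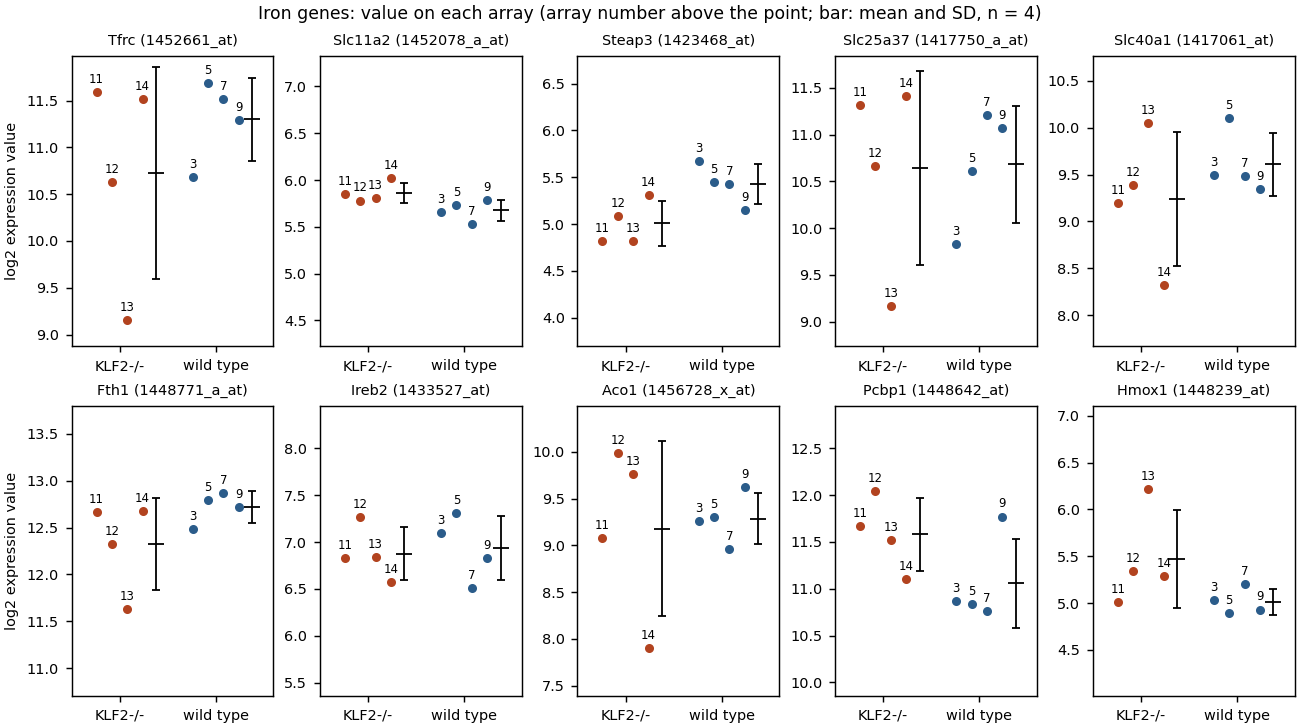
Log2 expression value (y axis, each panel spanning the same number of log2 units) on each array for the probe set of highest mean of each of the 10 iron genes, KLF2-/- arrays left and wild-type arrays right. Points carry the array number and bars give the mean and SD of 4 arrays. Knockout array 13 is lowest for Tfrc (9.16), Slc25a37 (9.17) and Fth1 (11.63) and highest for Hmox1 (6.22).

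Slc11a2, known as DMT1, which pumps iron out of the endosome, averaged higher in knockout arrays at all 3 of its probe sets, by 0.06 to 0.33. The one of highest mean had values of 5.85, 5.78, 5.81 and 6.02 in knockout arrays 11 to 14, against 5.66, 5.74, 5.53 and 5.79 in wild-type arrays 3, 5, 7 and 9. Only wild-type array 9 reached into the knockout range, just above the lowest knockout array. The difference was 0.19 (95% confidence interval -0.08 to 0.45, limma adjusted p = 0.86), the narrowest interval of the 19. At the second probe set the means were 5.92 ± 0.24 in knockout and 5.59 ± 0.24 in wild-type arrays (SD, n = 4 each), with overlapping arrays. Slc11a2 mRNA exists in forms with and without an iron-responsive element, and the sources used here do not say which form each probe set reads.

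Steap3, the endosomal reductase that turns ferric into ferrous iron, had the smallest p of the members. Its brightest probe set gave 4.82, 5.09, 4.82 and 5.31 in knockout arrays 11 to 14, against 5.67, 5.45, 5.43 and 5.15 in wild-type arrays 3, 5, 7 and 9. Knockout array 14 lay above wild-type array 9, so the groups overlapped by that pair. The difference was -0.42 (95% confidence interval -0.79 to -0.04, limma adjusted p = 0.86), and the unadjusted p from limma was 0.0328. It kept its sign under every alternative tried, at -0.52 to -0.33 with single arrays left out. The unadjusted p did not stay under 0.05: by limma it was 0.0612 with dim probe sets left out. Without wild-type arrays 3 and 5 the difference was -0.28 (limma unadjusted p = 0.213), and the authors' deposited score had p = 0.114. The mean of this probe set, 5.22, is close to the median of all probe sets at 5.14. The other probe sets, with means of 3.30 and 3.08, were far below the median of all probe sets and differed by -0.08 and 0.05. The one with a mean of 3.30 also carries the array maker's suffix for oligonucleotides that may cross-hybridise. Averaged over its 3 probe sets the gene differed by -0.15 (limma adjusted p = 0.917).

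Slc25a37, or mitoferrin 1, which carries iron into the mitochondria of erythroid cells, had 1 probe set. It had values of 11.31, 10.67, 9.17 and 11.41 in knockout arrays 11 to 14, against 9.83, 10.61, 11.21 and 11.07 in wild-type arrays 3, 5, 7 and 9. Each group held 1 low array, knockout array 13 and wild-type array 3, and the rest spread over the same range. The means were 10.64 ± 1.04 in knockout and 10.68 ± 0.62 in wild-type arrays (SD, n = 4 each), a difference of -0.04. Its 95% confidence interval, -1.19 to 1.10, does not show that the groups were alike. Without knockout array 13 the difference was 0.45, and without wild-type array 3 it was -0.33. The erythroid markers, as a mean of 12, deviated from their mean over the 8 arrays by -0.91 on knockout array 13 and by -0.53 on wild-type array 3. Most were low on wild-type array 3, but Hbb-y stood at 13.81 and Slc4a1 at 11.44 there, above their means in both groups. The part of the erythroid markers in the Slc25a37 values was not tested.

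Slc40a1, which encodes ferroportin, the cell's iron exporter, had probe sets that disagreed on the direction. The brighter one averaged 9.24 ± 0.71 in knockout and 9.61 ± 0.34 in wild-type arrays, and the dimmer one 6.55 ± 0.79 in knockout and 6.28 ± 0.21 in wild-type arrays (SD, n = 4 each). The brighter had 9.19, 9.39, 10.05 and 8.32 in knockout arrays 11 to 14, against 9.50, 10.11, 9.48 and 9.34 in wild-type arrays 3, 5, 7 and 9. Knockout array 14 was the low one, and without it the difference of -0.37 became -0.06. Without knockout array 13 it was -0.64. The dimmer had 6.14, 6.39, 7.71 and 5.95 in knockout arrays, against 6.25, 6.59, 6.13 and 6.17 in wild-type arrays. Here knockout array 13 was high, and without it the difference of 0.26 became -0.13, and without knockout array 14 it was 0.46. Visceral endoderm, an iron-transporting epithelium next to the captured cells, also expresses this gene. Its 12 markers deviated from their mean by -2.30 on knockout array 14 and by 0.94 on knockout array 13. On knockout array 12 and wild-type arrays 9 and 5 they were at 0.69, 0.52 and 0.27. The brighter Slc40a1 probe set was at -0.04, -0.08 and 0.69 on those arrays. Mesenchyme markers were at -1.02 on knockout array 14. The part of either list in the Slc40a1 values was not tested.

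Storage was read by Fth1, the heavy subunit of ferritin, and by Pcbp1, a chaperone that delivers iron to ferritin. The Fth1 probe set of highest mean had 12.67, 12.33, 11.63 and 12.68 in knockout arrays 11 to 14, against 12.48, 12.80, 12.87 and 12.71 in wild-type arrays 3, 5, 7 and 9. Every wild-type array but array 3 was above every knockout array. The difference was -0.39 (95% confidence interval -0.92 to 0.14, limma adjusted p = 0.86), and -0.16 without knockout array 13. The second Fth1 probe set gave a difference of 0.06 over a wild-type spread that was wide, from 10.62 and 10.79 in wild-type arrays 3 and 5 to 12.01 and 12.25 in wild-type arrays 7 and 9. Its knockout values of 10.97 to 11.81 lay between these pairs. Its name carries the suffix that the array's maker gives to probe sets that can read more than 1 gene, so its signal is uncertain.

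Pcbp1 had the largest positive difference of the 19 probe sets, which did not pass the test. Its values were 11.67, 12.05, 11.52 and 11.10 in knockout arrays 11 to 14, against 10.87, 10.84, 10.76 and 11.77 in wild-type arrays 3, 5, 7 and 9. Knockout arrays all lay above wild-type arrays 3, 5 and 7, and wild-type array 9 stood among the knockout arrays. The means were 11.58 ± 0.39 in knockout and 11.06 ± 0.48 in wild-type arrays (SD, n = 4 each), a difference of 0.52 (95% confidence interval -0.09 to 1.14, limma adjusted p = 0.86). Without wild-type array 9 it was 0.76 (limma unadjusted p = 0.00846, adjusted p = 0.494), and without knockout array 12 it was 0.37. Leaving out wild-type array 9 removed the array that broke the order, and 8.67% of all probe sets then had a limma unadjusted p under 0.05. Without both wild-type arrays 3 and 5 the Pcbp1 difference was 0.31 (limma unadjusted p = 0.403).

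The iron regulatory proteins are encoded by Aco1, whose product is also cytosolic aconitase when it holds an iron-sulphur cluster, and by Ireb2, whose product is degraded when iron is plentiful. Ireb2 had 6.83, 7.26, 6.84 and 6.58 in knockout arrays 11 to 14, against 7.10, 7.31, 6.51 and 6.83 in wild-type arrays 3, 5, 7 and 9. The groups covered the same range, with a difference of -0.06 (95% confidence interval -0.53 to 0.41, limma adjusted p = 0.981). Protein stability, through which Ireb2 is known to be controlled, is not read by an RNA array.

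Both Aco1 probe sets had their lowest value in knockout array 14 and their highest in knockout array 12. The brighter had 9.08, 9.98, 9.76 and 7.90 in knockout arrays 11 to 14, against 9.26, 9.31, 8.96 and 9.63 in wild-type arrays 3, 5, 7 and 9. The dimmer had 6.23, 6.53, 6.12 and 4.89 in knockout arrays, against 5.70, 5.97, 5.55 and 5.88 in wild-type arrays. Their differences were -0.11 and 0.17, and without knockout array 14 they were 0.32 and 0.52. Without knockout array 12 they were -0.37 and -0.03. At the dimmer probe set knockout arrays 11, 12 and 13 lay above all wild-type arrays. With all 8 arrays its limma unadjusted p was 0.612 (adjusted p = 0.959). Leaving out knockout array 14, which broke this order, gave a limma unadjusted p of 0.0119 (adjusted p = 0.568). In that setting 8.41% of all probe sets had a limma unadjusted p under 0.05. The brighter carries the maker's suffix for oligonucleotides that may cross-hybridise, so its signal is uncertain. Visceral endoderm markers deviated from their mean by -2.30 on knockout array 14, 0.69 on knockout array 12 and 0.94 on knockout array 13. Mesenchyme markers deviated by -1.02, 0.68 and 0.46 on the same arrays. The part of either list in the Aco1 values was not tested.

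Hmox1, the haem oxygenase that frees iron from haem and is induced by haem and oxidative stress, averaged 5.47 ± 0.52 in knockout and 5.02 ± 0.14 in wild-type arrays (SD, n = 4 each). Its values were 5.01, 5.34, 6.22 and 5.29 in knockout arrays 11 to 14, against 5.03, 4.89, 5.21 and 4.93 in wild-type arrays 3, 5, 7 and 9. Knockout array 13 was the highest of the 8, knockout array 11 lay within the wild-type range, and the remaining knockout arrays lay just above it. The difference of 0.45 (95% confidence interval -0.10 to 1.00, limma adjusted p = 0.86) became 0.20 without knockout array 13. Macrophages also express Hmox1, and their 12 markers lay 0.29 above their mean on that array. The rise was uneven, as Csf1r stood at 9.52 there, against 7.43 to 8.05 on the other arrays. Mrc1 was at 7.15 there, below its knockout mean of 7.54, and only 4 of the 12 were above the median of all probe sets. On the same array visceral endoderm markers were at 0.94, mesenchyme markers at 0.46 and endothelial markers at 0.26. The part of these lists in the Hmox1 value was not tested.

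Knockout array 13 was the lowest of the 8 arrays at 7 of the 19 probe sets, while it was lowest at 13.7% of all probe sets. Wild-type array 5 was highest at 5 of the 19, against 11.8% of all, and knockout array 14 was highest at 4 and lowest at 4, against 22.1% and 12.6% of all. Probe sets of a gene share their RNA, so these counts hold fewer than 19 independent values. On knockout array 13, deviations from the mean of the 8 arrays were -1.85 for Tfrc, -1.49 for Slc25a37 and -0.89 for Fth1, each at its brightest probe set. On the same array Hmox1 stood at 0.98 and Slc40a1 at 0.63. The endosomal genes Slc11a2 and Steap3 were at 0.04 and -0.40 there. On knockout array 14 the order differed, with Slc25a37 at 0.75 and Tfrc at 0.50 against -1.33 for Aco1 and -1.10 for Slc40a1.

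**Figure D3:**
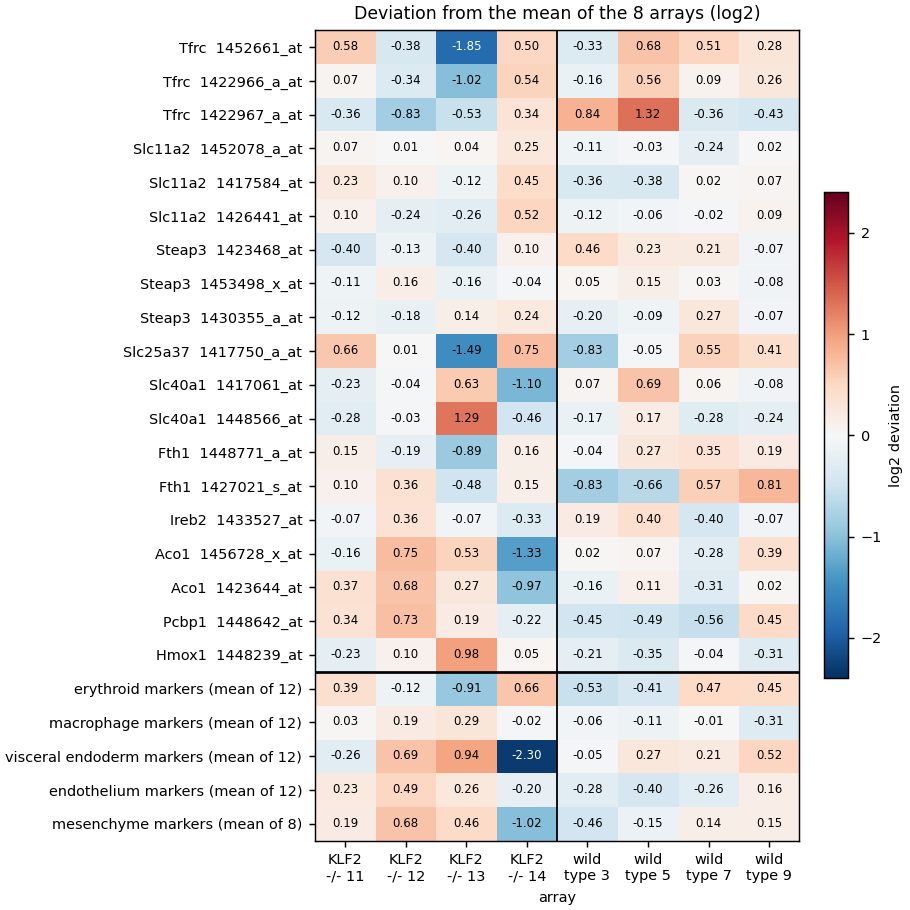
Deviation of each value from the mean of the 8 arrays, in log2 units, for the 19 iron gene probe sets (above the line) and for the mean of 5 lists of cell type markers (below it), with KLF2-/- arrays left of wild-type arrays. The lowest member value is -1.85 (Tfrc on knockout array 13), and on knockout array 14 the visceral endoderm markers are at -2.30.

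The 3 members with the widest range over the 8 arrays, by their probe set of highest mean, were Tfrc (2.53), Slc25a37 (2.24) and Aco1 (2.08). For each, the genes of most similar pattern among 12392 others were sought, by the mean absolute difference between values centred on their own mean over the 8 arrays. Tfrc was followed most closely by Nt5c3 (0.18), which encodes a pyrimidine nucleotidase, and by Slc39a8 (0.20), which encodes a metal ion transporter. Slc39a8 gave 12.33, 11.55, 10.56 and 12.35 in knockout arrays 11 to 14, against 11.96, 12.44, 12.43 and 11.96 in wild-type arrays 3, 5, 7 and 9. Like Tfrc, it was lowest on knockout array 13. Slc25a37 was followed by Car2 (0.14), a carbonic anhydrase gene, and by Nudt4 (0.19). Aco1 was followed by Hpn (0.09), which encodes the membrane protease hepsin, and by 0610040J01Rik (0.12). Hpn was lowest on knockout array 14, at 4.14, with 5.02 to 6.09 in the other knockout arrays and 5.22 to 5.71 in wild-type arrays. These likenesses rest on 8 arrays, on each of which all genes were read from the same captured material, and no test was made of them.

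Other genes of iron and haem handling gave no call either. Of 41 listed, 31 were measured, and 0 passed an adjusted p of 0.05 by limma, against 0.00% of all genes. An unadjusted p under 0.05 was reached by 3, against 4.80% of all genes. The mean was higher in knockout arrays for 14, against 53.4% of all genes, and lower for 17, against 46.6%, with a median difference of -0.02, against 0.02 over all genes. Slc46a1, a folate transporter that can also carry haem, had the smallest p and was the 1 gene of the list whose groups did not overlap, against 2.61% of all genes. It had values of 4.53, 4.19, 4.13 and 4.36 in knockout arrays 11 to 14, against 4.81, 4.98, 4.98 and 4.61 in wild-type arrays 3, 5, 7 and 9. The difference was -0.54 (limma unadjusted p = 0.00543, adjusted p = 0.905). Its mean lies below the median of all probe sets, and its second probe set had the opposite sign.

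Both next genes act on the traffic of the transferrin receptor. Snx3, a sorting nexin that recycles the receptor, had 10.73, 11.07, 11.18 and 10.85 in knockout arrays, against 9.85, 9.87, 10.51 and 10.91 in wild-type arrays. Wild-type array 9 alone reached the knockout range, as it did for Pcbp1. The difference was 0.67 (SE 0.25, limma adjusted p = 0.905). Exoc6, an exocyst subunit whose loss slows receptor recycling in mice with haemoglobin deficit, differed by -0.54 (SE 0.21, limma adjusted p = 0.905), and its second probe set had the opposite sign. Hamp2, a relative of the iron hormone hepcidin, differed by -0.34 (SE 0.16) at a mean below the median of all probe sets, and its second probe set had the opposite sign. The probe set used for Hamp2 carries the maker's suffix for oligonucleotides that may cross-hybridise, so its signal is uncertain.

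**Figure D4:**
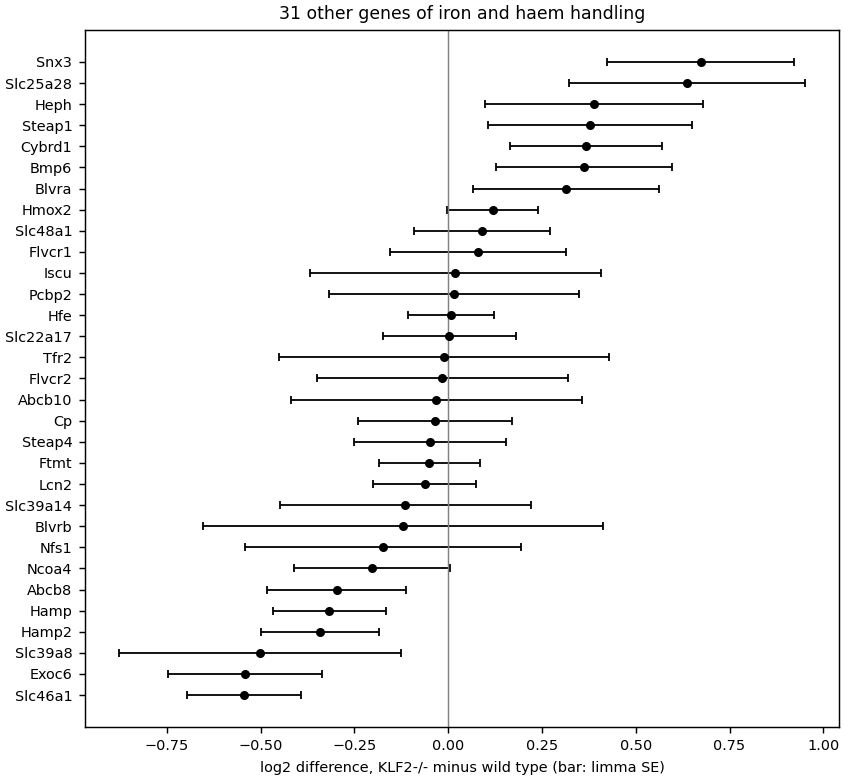
Log2 difference, KLF2-/- minus wild type (x axis), for 31 other genes of iron and haem handling, each by its brightest probe set. Points are limma estimates from 4 arrays a group and bars their SE. The differences run from -0.54 (Slc46a1) to 0.67 (Snx3), with 14 above and 17 below 0.

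Members were last set beside other mRNAs known to carry an iron-responsive element. Of those with the element before the coding sequence, 4 of 6 listed were measured, namely Fth1 (-0.39), Slc40a1 (-0.37), Alas2 (0.47) and Epas1 (0.10). Alas2, which encodes the first enzyme of erythroid haem synthesis, had 10.21, 9.77, 7.85 and 10.39 in knockout arrays 11 to 14, against 7.54, 7.88, 10.58 and 10.33 in wild-type arrays 3, 5, 7 and 9. It was low on knockout array 13 and wild-type arrays 3 and 5, the arrays with the lowest mean level of erythroid markers, a list that includes it. Of those with the element after the coding sequence, 2 of 3 were measured, Tfrc (-0.58) and Slc11a2 (0.19). Both classes thus held members of either sign. Of these 6 genes 0 passed the test (limma adjusted p of 0.905 or more), against 0.00% of all genes. At an unadjusted p under 0.05 by limma there were 0, against 4.80% of all genes, so these counts set the 6 apart from no other genes. The elements act on translation and on mRNA decay, of which the array can read only the second.

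The authors' deposited table gives a signed score for each probe set and its q-value. The header does not state its direction, which was read from the data: the score correlated with the difference used here at r = 0.796 over all probe sets. Of the 19 iron gene probe sets, 0 had a q under 0.05 in the authors' deposited table, against 0.968% of all probe sets, and the lowest q was 0.512. That was Pcbp1, with a score of 2.18 in the authors' deposited table, followed by the brighter Fth1 probe set with -2.15 (q = 0.531). The sign of the score and of the difference was the same at 16 of the 19. Because the direction of the score was read from this same difference, that count is no independent support.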

How the data were processed

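Values on the log2 scale, 1 for each probe set on each array, are those the authors deposited. Per the submitters' processing notes GCOS, RMA and affy were used, with no order or version given. The authors also deposited, for each probe set, a signed score, its p-value and its q-value, by a method that the sources used here do not give. Values were used as deposited, without further normalisation or a filter on dim probe sets. Gene symbols came from the platform annotation (20380 probe sets with 1 symbol, 691 with several, 1555 with none) and all 10 members matched a RefSeq gene of GRCm38.p6 by identifier. For each of 12393 genes the probe set of highest mean stood for it.

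The comparison used limma 3.58.1 (lmFit and eBayes, R 4.3.3) on all 22626 probe sets and 8 arrays, with Benjamini-Hochberg adjustment over all of them and a threshold of 0.05. The script was tested on simulated data. Labels give no batch, the ranges of slides and RNA given differ between the groups, and the number of arrays limits the precision. Members, lists, naming rule and alternatives were chosen with earlier results of these data known. The rule named all members, the 4 other iron genes of smallest p, the mRNAs with an iron-responsive element and, for 3 members, the 2 genes of most similar pattern. The promoters shown and their motifs were chosen after the values were seen. Alternatives were quantile normalisation, median centring, a filter on dim probe sets, trend and robust eBayes, array weights, the mean over probe sets and arrays left out.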

Additional observations from a re-analysis of the deposited data

Results flagged for a closer look

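For Pcbp1 the 4 knockout arrays lay between 11.10 and 12.05, and the wild-type arrays at 10.76 to 10.87 apart from wild-type array 9, which stood at 11.77. This was the 1 of 38 sets of 4 arrays, from 19 probe sets in both groups, in which the gap to the nearest array passed Dixon's limit. Chance alone passes that limit in about 1 of 20 such sets.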

How the results depend on the processing

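With every alternative 0 of the 19 iron gene probe sets and 0 of all probe sets passed an adjusted p of 0.05 by limma, and the lowest adjusted p among the 19 was 0.337, without knockout arrays 13 and 14. At an unadjusted p under 0.05, limma gave 0 to 3 of the 19 and 425 to 3056 of all probe sets. Of 281 differences recomputed by limma, 29 changed sign, at 9 of the 19 probe sets. None of these arose from quantile normalisation, median centring, the filter on dim probe sets (which kept 15 of the 19) or trend and robust eBayes. Their cause was not tested. Array weights gave Slc25a37 0.14, the brighter Aco1 probe set 0.091 and the dimmest Steap3 probe set -0.023. Without wild-type arrays 3 and 5 the dimmest Tfrc probe set was at 0.046, Ireb2 at 0.21, the second Fth1 probe set at -0.65 (limma unadjusted p = 0.0366), the dimmest Slc11a2 at -0.0013 and the dimmest Steap3 at -0.077. Without knockout arrays 13 and 14, chosen after seeing the data, Slc25a37 was at 0.31, the brighter Aco1 at 0.24, Ireb2 at 0.11, the dimmer Slc40a1 at -0.022, the dimmest Slc11a2 at -0.036 and the dimmest Steap3 at -0.12. The mean over its probe sets put Aco1 at 0.0315. The authors' deposited table had the opposite sign for Slc25a37 (1.03), the second Slc11a2 (-0.36) and second Fth1 (-0.70) probe sets. With single arrays left out, differences ran from -0.33 to 0.45 for Slc25a37, -0.21 to 0.34 for the second Fth1, -0.37 to 0.32 and -0.027 to 0.52 for the brighter and dimmer Aco1, -0.20 to 0.065 for Ireb2, -0.13 to 0.46 for the dimmer Slc40a1, -0.10 to 0.16 for the dimmest Slc11a2 and -0.027 to 0.14 for the dimmest Steap3. No paired analysis was possible because the groups share no replicate number.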
